A study of Rattus norvegicus with 6 samples.

Results

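DNA replication genes of S phase were followed in rat atrial fibroblasts by mRNA sequencing. The set holds 40 genes chosen by name for their work at the replication fork or in the supply of its building blocks, out of 40154 genes in the deposited table. All 40 were found in that table, and all 40 were counted deeply enough to be among the 14852 genes tested. Fibroblasts were taken from the atrial muscle of Sprague-Dawley rats aged 1 to 3 days and were separated from atrial myocytes by a preplating step of 1.5 h, in which non-myocytes attach to the dish before myocytes do. Cardiomyocyte transcripts remained. A list of 12 cardiomyocyte markers took 0.206% to 0.217% of counts in si-NC, against 7.54% to 9.47% for 12 fibroblast markers. The collagen genes Col1a1 and Col3a1 made up most of the fibroblast counts, so these shares are not proportions of cells. The mean TPM of these cardiomyocyte markers in si-NC ran from 2.66 to 1203, with Tnnt2, a sarcomere gene, at 1092. The cells of all 6 libraries were transfected with siRNA, carry the treatment label "Atrial differentiation" and were collected 24 h later. The 3 control libraries received si-NC, a negative control siRNA, and the other 3 received si-GPD1L, siRNA against the transcript of Gpd1l, an enzyme that resembles glycerol-3-phosphate dehydrogenase. The labels say neither whether the 3 libraries of a group came from separate animals or cultures nor whether the digit in the si-GPD1L names numbers replicates or different siRNAs. It was read as a replicate number, and the p-values measure the spread between these libraries, which may be technical.

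DNA is copied once in each cell cycle, during S phase. Origins are licensed in G1 when ORC, Cdc6 and Cdt1 load the MCM helicase. Cdc45, GINS and Mcm10 then turn it into an active helicase that unwinds the strands. Polymerase alpha-primase lays down primers, polymerases epsilon and delta extend them while held by the PCNA ring, which the RFC complex loads, and RPA coats the exposed single strands. Fen1 and Lig1 join the Okazaki fragments of the lagging strand, and ribonucleotide reductase, thymidylate synthase and thymidine kinase supply deoxynucleotides. Transcripts of many of these genes peak at the G1/S border, when E2F transcription factors are released from the retinoblastoma protein.

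Short words that E2F factors are known to bind were searched in promoters of the RefSeq annotation (build GRCr8), each covering 250 bases before and 50 bases after the annotated start. The words were TTTCCCGC, TTTCGCGC, TTTGCCGC and TTTGGCGC on either strand, and overlapping words were counted one by one. Promoters were found for 34 of the 40 genes, the 6 without an entry being Orc1, Cdc6, Mcm4, Gins4, Rpa3 and Rrm2. At least 1 word stood in 16 of these 34 promoters (47.1%), against 424 of 10919 promoters of genes tested (3.88%) and 618 of all 27457 promoters (2.25%). Of the 25 words in the replication promoters, 19 began within 60 bases of the start. The 5 MCM helicase genes with an entry each held 2 or more words, which is why stretches of their promoters are shown here, with that of Pole for comparison. Capitals mark the words, and positions count from the annotated start, with 0 as its first base.

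Mcm2 (chr4:122918065-122918144, minus strand, words at -14 and -10): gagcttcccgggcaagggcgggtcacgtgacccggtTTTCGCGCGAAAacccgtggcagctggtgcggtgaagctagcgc
Mcm3 (chr9:30733709-30733788, minus strand, words at -6 and 13): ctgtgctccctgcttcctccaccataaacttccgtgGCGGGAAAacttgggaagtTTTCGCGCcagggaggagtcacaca
Mcm5, distal (chr19:13488564-13488643, plus strand, words at -213 and -209): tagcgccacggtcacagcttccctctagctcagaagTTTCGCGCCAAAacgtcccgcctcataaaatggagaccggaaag
Mcm5, proximal (chr19:13488769-13488848, plus strand, word at -8): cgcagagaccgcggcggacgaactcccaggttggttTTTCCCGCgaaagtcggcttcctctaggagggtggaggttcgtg
Mcm6 (chr13:42404448-42404527, minus strand, words at -139 and -135): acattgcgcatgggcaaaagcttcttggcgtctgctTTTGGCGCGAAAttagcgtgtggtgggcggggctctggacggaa
Mcm7 (chr12:22163187-22163266, minus strand, word at -52): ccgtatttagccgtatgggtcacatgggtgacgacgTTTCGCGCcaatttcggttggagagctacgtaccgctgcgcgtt
Pole (chr12:52053621-52053700, minus strand, word at -2): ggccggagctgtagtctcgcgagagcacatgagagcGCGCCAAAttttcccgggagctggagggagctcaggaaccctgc

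In Mcm2, the distal site of Mcm5 and Mcm6 the capitals run on for longer than a single word because a word on each strand overlaps. The CCAAT box stood in 21 of the 34 promoters (61.8%), against 37.5% of promoters of genes tested and 37.7% of all promoters. The GC box GGGCGG stood in 22 of 34 (64.7%), against 61.0% and 34.9%. The cell cycle homology words TTTGAA and TTCGAA, known from promoters of mitotic genes, stood in 6 of 34 (17.6%), against 13.6% and 19.5%. Both strands were searched for each of these, and a match is a match of letters only.

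The 2 groups differed little in these genes. Of the 40 genes, 2 rose in si-GPD1L (Mcm3 and Mcm5, both subunits of the MCM helicase) and 0 fell by the quasi-likelihood test of edgeR at an adjusted p under 0.05. Of the 14852 genes tested, 4.03% rose and 2.33% fell by the same rule, 6.36% in all, so the share of 2 in 40 (5%) lay near the background. None of the 40 passed both the adjusted p threshold and a log2 fold change of more than 1 in size, criteria that 1.62% of all genes passed. At an unadjusted p under 0.05, 9 of the 40 were higher and 2 lower, against a background of 11.4% higher and 11% lower, and DESeq2's Wald test called 3 higher (Mcm3, Mcm5 and Pole) and 0 lower, where it called 4.60% of all genes higher. By role, these 9 were 4 MCM subunits, 2 genes of polymerases delta and epsilon, and 1 gene each of origin licensing, the clamp loader and nucleotide supply, and the 2 were Rfc4 and Rpa3.

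The differences were small and mostly to the same side. The log2 fold change was positive for 31 of the 40 genes and negative for 9, with a median of 0.17 and a range of -0.43 to 0.43, while over all genes tested 7294 of 14852 were positive and the median was -0.0049. Groups did not overlap, with all 3 si-GPD1L libraries above all 3 si-NC libraries, for 11 of the 40 genes, and were separated the other way for 0, against 15.1% and 13.9% of all genes tested. The 95% interval of the log2 fold change lay within 1 on either side of 0 for 39 of the 40 genes, the exception being Pole2, whose interval reached 1.04. These counts describe the set, and its genes share libraries and a cell cycle phase and are not independent of each other. In bulk RNA, a different number of cells in S phase and a different amount of RNA per cell cannot be told apart.

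**Figure D1:**
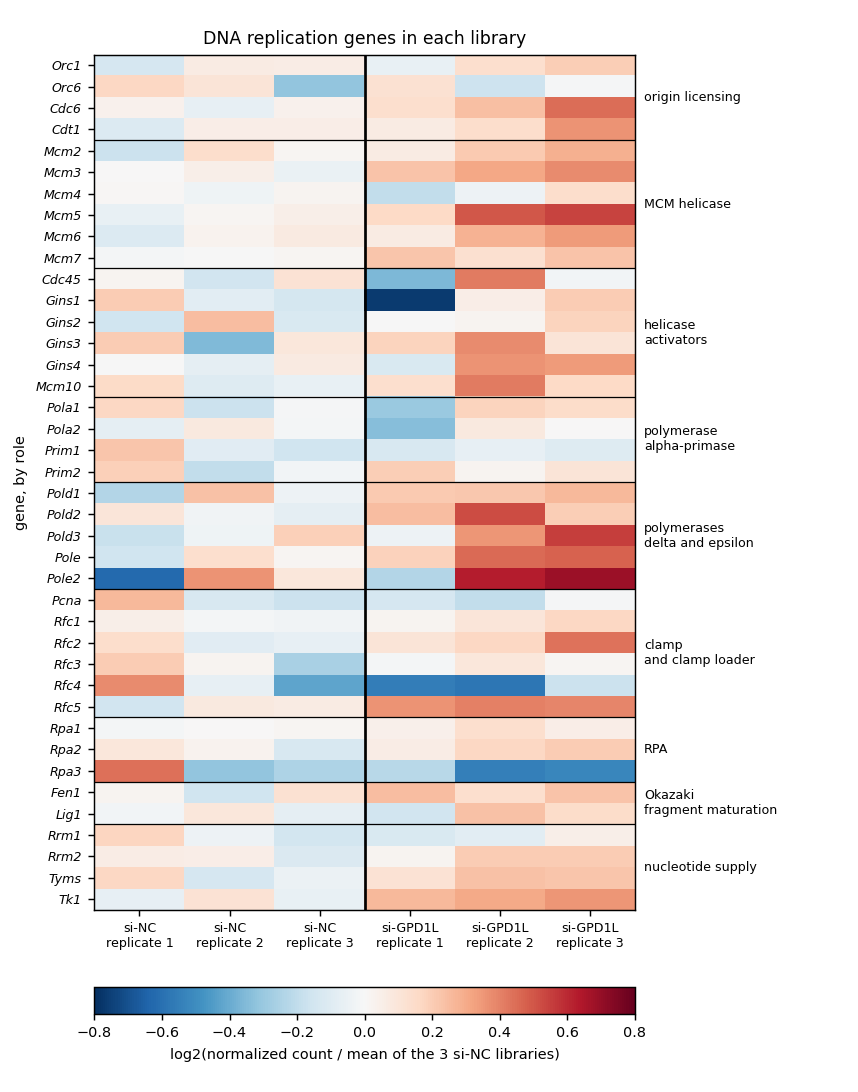
Each cell shows the normalized count of a gene in 1 library as the log2 ratio to the mean of the 3 si-NC libraries, for the 40 genes ordered by role (rows) in the 6 libraries (columns). Mcm3 and Mcm5 are above 0 in all 3 si-GPD1L libraries, Rpa3 is high in si-NC replicate 1, and si-GPD1L replicate 1 has fewer red cells than the other si-GPD1L libraries.

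The transcripts were present at moderate levels in the control cells. On the TPM scale, a share of all transcripts that divides by gene length and so allows genes to be compared, Pcna, the sliding clamp, was highest at 122 ± 14.4 (SD, n = 3) in si-NC. Prim1, the catalytic primase subunit, followed with 56.8 ± 5.35 TPM and Rrm1, the large subunit of ribonucleotide reductase, with 55.8 ± 3.63 TPM. Prim1 and Rrm1 did not differ beyond their spread, and Pcna lay above both in every library.

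The 6 MCM subunits, which form a ring in equal numbers, lay between 20.3 ± 1.73 TPM (Mcm5) and 35.5 ± 1.80 TPM (Mcm4). The RFC subunits lay between 16.9 ± 2.22 TPM (Rfc5) and 24.0 ± 0.496 TPM (Rfc1). Subunits of a complex were not always alike, as Rpa3 stood at 45.7 ± 11.7 TPM beside 27.1 ± 1.23 TPM for Rpa2. Rpa1 lay between them at 35.2 ± 2.09 TPM. The Rpa3 mean was raised by si-NC replicate 1, at 59.1 TPM against 37.8 and 40.25 TPM in si-NC replicates 2 and 3. The subunits of polymerase epsilon differed widely, with 6.33 ± 0.892 TPM for the catalytic subunit Pole and 2.19 ± 0.773 TPM for Pole2, the lowest of the 40, beside 23.8 ± 1.63 TPM for Pole3 and 38.0 ± 6.06 TPM for Pole4, which are not among the 40. Of the 40 genes, 20 reached a mean of 20 TPM in si-NC and 12 stayed under 10 TPM. TPM values are used here for levels only, since the median of all genes tested was 0.08 higher in si-GPD1L on the log2 TPM scale, and relative to that shift the median of the 40 genes was 0.17.

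**Figure D2:**
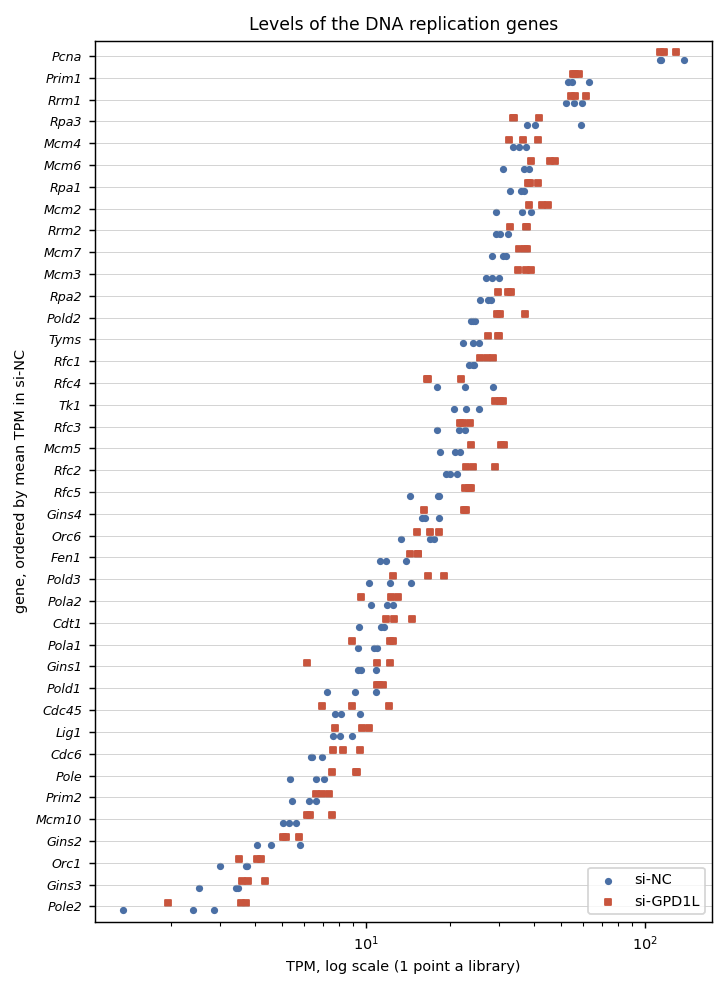
TPM of each of the 40 genes on a log axis, ordered by the mean of the si-NC libraries, with 1 point for each library (circles si-NC, squares si-GPD1L). Pcna is highest at about 122 TPM in si-NC and Pole2 lowest at 2.19 TPM, and for most genes the points of the groups lie close together beside this range.

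Comparisons between groups were made on normalized counts, which are counts scaled to the mean effective library size by TMM factors. The origin licensing genes had 0 calls among 4 and a median log2 fold change of 0.15. Cdc6, the ATPase that helps load the helicase, was at 154, 144 and 154 normalized counts in si-NC and at 166, 178 and 206 in si-GPD1L. All si-GPD1L libraries of Cdc6 were above all si-NC libraries, but the log2 fold change of 0.28 did not pass the adjustment (adjusted p = 0.217). Cdt1, which brings MCM to the origin, had a log2 fold change of 0.19 (adjusted p = 0.371), again with groups that did not overlap. Orc1 and Orc6, subunits of the origin recognition complex, showed log2 fold changes of 0.10 (adjusted p = 0.714) and -0.01 (adjusted p = 0.968).

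The MCM helicase held both calls of the set. Its median log2 fold change was 0.21 over 6 subunits, 5 of which were positive, and its summed normalized counts ran from 4447 to 4738 in si-NC and from 4849 to 5692 in si-GPD1L. The summed counts of the groups did not overlap, and the ratio of their means was 1.14.

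Mcm3 lies on chromosome 9 (chr9:26914057-26932201, minus strand, coordinates of the deposited table, for which the submitters' notes name rn6). It was at 652, 673 and 628 normalized counts in si-NC and at 763, 806 and 845 in si-GPD1L. Every si-GPD1L library was above every si-NC library. The log2 fold change was 0.31 ± 0.08 (SE, adjusted p = 0.0368 in edgeR's quasi-likelihood test), a fold of 1.24. The call was lost when any 1 of 5 libraries was left out and held without si-NC replicate 1 (adjusted p = 0.0106 with edgeR), and over 14 alternative settings the adjusted p ran from 0.0106 to 0.168 and the log2 fold change from 0.27 to 0.34.

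Mcm5 lies on chromosome 19 (chr19:14523482-14561281, plus strand, same table). It was at 485, 511 and 522 normalized counts in si-NC and at 565, 713 and 736 in si-GPD1L. Replicate 1 of si-GPD1L stood closer to the si-NC libraries than to the other si-GPD1L libraries, and the groups did not overlap. The log2 fold change of 0.41 ± 0.10 (SE, adjusted p = 0.0371 in edgeR's quasi-likelihood test) was the second largest positive value of the 40 and amounted to a fold of 1.33. The call was lost when si-NC replicate 2 was left out (adjusted p = 0.0977 with edgeR), and likewise for replicate 2 (adjusted p = 0.197) or replicate 3 (adjusted p = 0.156) of si-GPD1L, and over the 14 settings the log2 fold change ran from 0.34 to 0.52.

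The other MCM subunits did not pass. Mcm7 was at 652, 657 and 666 normalized counts in si-NC and at 769, 718 and 772 in si-GPD1L, with groups that did not overlap and a log2 fold change of 0.19 (adjusted p = 0.150). Mcm6 had a log2 fold change of 0.23 (adjusted p = 0.140) and Mcm2 of 0.19 (adjusted p = 0.244), both with overlapping groups. Mcm4 stood apart with a log2 fold change of -0.03 (95% interval -0.21 to 0.16), from 1099, 1066 and 1111 normalized counts in si-NC and 952, 1061 and 1203 in si-GPD1L. The interval of Mcm4 overlapped that of Mcm3 and not that of Mcm5 (0.18 to 0.63), and the difference between subunits was not tested.

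The helicase activators had 0 calls among 6, with log2 fold changes from -0.10 (Gins1) to 0.24 (Mcm10). Of the 4 GINS subunits, which act as a complex, Gins1 was at 92.0, 75.1 and 72.2 normalized counts in si-NC and at 46.9, 82.7 and 91.8 in si-GPD1L, and Gins4 had a log2 fold change of 0.21 (adjusted p = 0.423). The 95% intervals of Gins1 (-0.61 to 0.40) and Gins4 (-0.10 to 0.53) overlapped widely. Cdc45, which binds MCM and GINS in the active helicase, had groups that overlapped widely, with 112 to 192 normalized counts in si-GPD1L around 129 to 156 in si-NC. Among these low transcripts the standard errors were large, up to 0.23 for Gins1.

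The polymerases were described in 2 roles. Polymerase alpha-primase, which starts each strand, had 0 calls among 4, a median log2 fold change of -0.02 and a summed count whose ratio of means was 0.976. Polymerases delta and epsilon, which extend the strands, had 0 calls among the 5 subunits in the set, of which all 5 were positive, with a median of 0.33 and a ratio of summed counts of 1.25. Their summed counts ran from 1133 to 1351 in si-NC and from 1395 to 1645 in si-GPD1L and did not overlap, whereas those of polymerase alpha-primase did. The remaining subunits of these polymerases, outside the set, were negative, with log2 fold changes of -0.28 for Pold4 (adjusted p = 0.131, all si-GPD1L libraries below all si-NC libraries), -0.29 for Pole4 (adjusted p = 0.222) and -0.05 for Pole3 (adjusted p = 0.794). These 3 were named after their values were seen, and the difference between roles or subunits was not tested.

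Pole, the catalytic subunit of the leading-strand polymerase, was at 332, 407 and 376 normalized counts in si-NC and at 422, 509 and 515 in si-GPD1L. The groups did not overlap, and the log2 fold change of 0.38 had an adjusted p of 0.0616 in edgeR's quasi-likelihood test, under 0.05 in 4 of 14 alternative settings. Pold2, the accessory subunit of polymerase delta, was at 316, 290 and 281 in si-NC and at 351, 425 and 338 in si-GPD1L, with a log2 fold change of 0.33 (adjusted p = 0.0994). Pole2, the second subunit of polymerase epsilon, had the largest positive value of the 40, a log2 fold change of 0.43 ± 0.28 (SE, adjusted p = 0.396 in edgeR's quasi-likelihood test). Its normalized counts were 37.6, 74.1 and 61.5 in si-NC and 49.1, 89.1 and 92.8 in si-GPD1L, so that replicate 1 was lowest in either group and the groups overlapped. Pole2 was also the transcript with the largest standard error, and its log2 fold change was 0.20 with replicate 1 of si-NC left out and 0.66 with replicate 1 of si-GPD1L left out.

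**Figure D3:**
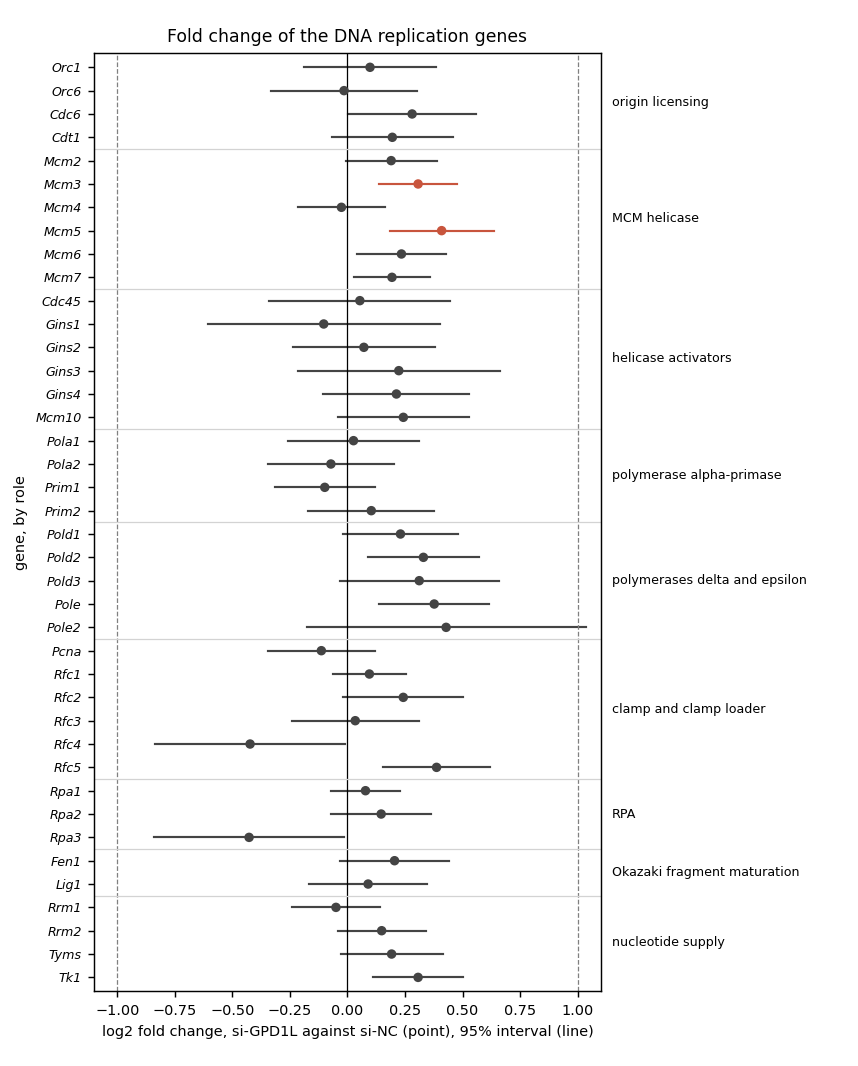
Log2 fold change of si-GPD1L against si-NC (points) with its 95% interval (lines) for the 40 genes by role, with the 2 genes at an adjusted p under 0.05 in red and dashed lines at -1 and 1. All points lie between -0.43 and 0.43, those of the 5 subunits of polymerases delta and epsilon in the set are above 0 (Pold4, Pole3 and Pole4 are not drawn), and Rfc4 and Rpa3 lie farthest below 0.

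The clamp and its loader had 0 calls among 6 and a median log2 fold change of 0.06. The loader subunits spread more than any other role, from -0.42 for Rfc4 to 0.39 for Rfc5. Rfc5 was at 189, 221 and 220 normalized counts in si-NC and at 269, 278 and 276 in si-GPD1L. The groups of Rfc5 did not overlap, and its adjusted p of 0.0514 in edgeR's quasi-likelihood test lay just above the threshold. Rfc4 was at 279, 205 and 160 in si-NC and at 146, 144 and 191 in si-GPD1L, with a log2 fold change of -0.42 ± 0.19 (SE, adjusted p = 0.211). Much of that value came with si-NC replicate 1, since the log2 fold change of Rfc4 was -0.19 without that library. Pcna was at 1330, 1020 and 990 in si-NC and at 1014, 970 and 1104 in si-GPD1L. The high Pcna value in si-NC replicate 1 stood apart from the other 5 libraries, and the log2 fold change was -0.11 with that library and 0.03 without it.

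Of the RPA genes, which encode the trimer that coats single-stranded DNA, 0 of 3 were called. Rpa3, the smallest subunit, had the most negative value of the 40, a log2 fold change of -0.43 ± 0.19 (SE, adjusted p = 0.205). It was at 302, 179 and 187 normalized counts in si-NC and at 191, 153 and 155 in si-GPD1L. The groups overlapped, si-NC replicate 1 alone was far above the rest, and without it the log2 fold change was -0.15 (adjusted p = 0.588 with edgeR). Rpa1, the large subunit, was at 867, 878 and 888 in si-NC and at 904, 965 and 910 in si-GPD1L, a separation of the groups with a log2 fold change of only 0.08 (adjusted p = 0.553).

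Okazaki fragment maturation had 0 calls among 2, and the log2 fold change was 0.20 for the flap nuclease Fen1 (adjusted p = 0.292) and 0.09 for the ligase Lig1 (adjusted p = 0.709). The nucleotide supply genes had 0 calls among 4. Tk1, thymidine kinase of the salvage pathway, was at 389, 440 and 390 normalized counts in si-NC and at 486, 502 and 519 in si-GPD1L. The groups of Tk1 did not overlap, and the log2 fold change of 0.31 had an adjusted p of 0.0631 in edgeR's quasi-likelihood test. Tyms, thymidylate synthase, and Rrm2, the small reductase subunit made in S phase, lay 0.19 (adjusted p = 0.292) and 0.15 (adjusted p = 0.347) higher on the log2 scale. Rrm1 was at 1482, 1283 and 1189 in si-NC and at 1211, 1244 and 1363 in si-GPD1L, which gave a log2 fold change of -0.05 (95% interval -0.24 to 0.14).

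**Figure D4:**
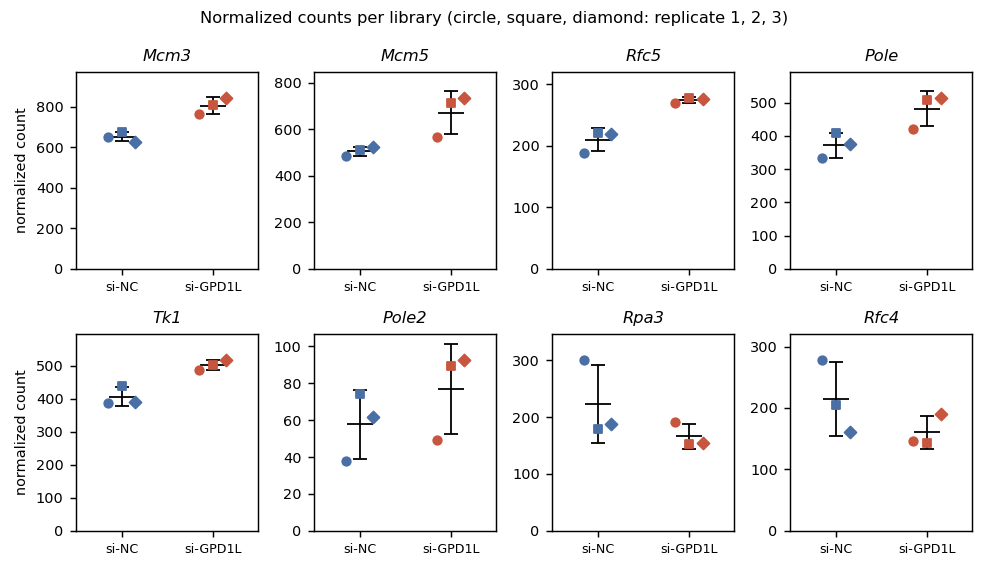
Normalized counts of 8 of the genes in each library (symbols), with the mean and SD of the 3 libraries of each group (black), on axes that start at 0. The groups of Mcm3, Mcm5, Rfc5, Pole and Tk1 do not overlap, those of Pole2, Rpa3 and Rfc4 do, and si-NC replicate 1 is highest for Rpa3 and Rfc4.

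The libraries of a group differed among themselves in these genes as much as many of the differences between groups. Centred on the mean of si-NC, the median log2 value of the 40 genes was 0.03, -0.01 and -0.02 for the control libraries and 0.05, 0.18 and 0.20 for those of si-GPD1L. Replicate 1 of si-GPD1L was the lowest of its group for 31 of the 40 genes and lay near the si-NC libraries, while replicate 3 of si-GPD1L was the highest of all 6 libraries for 18 genes. As a share of all counts the 40 genes took 0.0858% to 0.0928% in si-NC against 0.0895% to 0.101% in si-GPD1L, so the groups overlapped. The median coefficient of variation over the 40 genes was 9.60% in si-NC and 9.87% in si-GPD1L, beside 8.90% and 5.64% over 8960 genes of 100 to 2000 normalized counts. Without si-GPD1L replicate 1 the median log2 fold change of the 40 genes was 0.20 with 34 positive, and 1 gene (Mcm5) was called, against 1.97% of all genes called higher in that fit. Without si-GPD1L replicate 3 the median was 0.11. No gene of the 40 was called in the fits without si-NC replicate 2, si-GPD1L replicate 2 or si-GPD1L replicate 3. In those fits 2.47%, 2.04% and 2.70% of all genes were called higher, so 0 of 40 lay near the background.

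Values moved with gene length most widely in si-NC replicate 1. Over all genes tested, si-NC replicate 1 was 0.20 above the mean of the 6 libraries (median log2 deviation) for 1162 genes with exons under 1000 bases in sum and at -0.10 for 5231 genes of 4000 bases and over. The other 5 libraries stayed between -0.09 and 0.06 over the same length classes. Among them, the si-GPD1L libraries and si-NC replicate 3 rose with length, and si-NC replicate 2 fell. Because the mean includes si-NC replicate 1, the trend of that library tilts the other 5 the opposite way. The other 5 also differed among themselves under 1000 bases, from 0.06 in si-NC replicate 2 to -0.09 in si-GPD1L replicate 3. Deviations from a shared mean do not show which libraries carry the trend. Rpa3 has 617 bases of exon sequence, Pcna 1160, Rfc4 1184 and Prim1 1630, and all 4, chosen after their values were seen, were highest in si-NC replicate 1. Other genes went the other way, as Rfc5 (1597 bases) and Pold3 (1712 bases) were lowest in that library and Rrm1 (3011 bases) was highest. Of the 40 genes, 8 were highest of all 6 libraries in si-NC replicate 1 and 14 were lowest there. All 8 of the replication genes of 4000 bases and over were positive, as were 15 of 18 between 2000 and 4000 bases, 8 of 13 between 1000 and 2000 bases and 0 of 1 under 1000 bases. In the same order their median log2 fold changes were 0.10, 0.20, 0.15 and -0.43. Over all genes tested the medians were 0.04, -0.002, -0.05 and -0.15.

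With each library's trend on length removed, an alternative chosen after the data were seen, 5 of the 40 genes were called higher and 0 lower, against 5.02% of all genes called higher in that fit. The added calls were Pold2, Rfc5 and Tk1, with adjusted p of 0.0419, 0.0350 and 0.0399 in edgeR's quasi-likelihood test. Rpa3 and Rfc4 moved to log2 fold changes of -0.26 and -0.33, and the median of the 40 genes was 0.19.

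**Figure D5:**
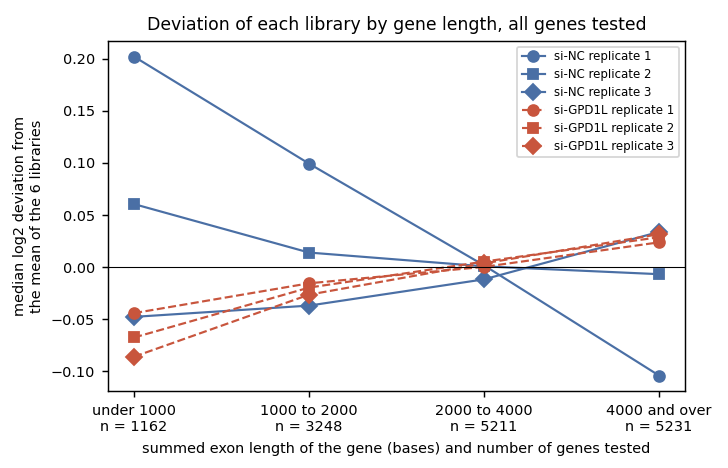
Median log2 deviation of each library from the mean of the 6 libraries (lines) over all genes tested, in 4 classes of summed exon length with the number of genes in each. The line of si-NC replicate 1 runs from 0.20 for the shortest genes to -0.10 for the longest, while the other 5 libraries stay between -0.09 and 0.06.

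Genes with an E2F word in the promoter were compared with those without. The 16 replication genes with a word had a median log2 fold change of 0.19 with 15 positive, and the 18 with none had 0.09 with 12 positive. Mcm3 and Mcm5, whose promoters are printed above, were the called genes of the former. Outside the set, the 408 genes tested that held a word had a median of -0.0016 with 202 positive and 11 called higher (2.70%), beside a median of -0.0050 and 4.09% called higher over 10477 genes with none. Among these genes outside the set, all with a promoter entry, the share called higher was no larger with the word than without it. In the set, 2 of 16 genes with a word and 0 of 18 with none were called higher. The part of E2F factors in these values was not tested.

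Other genes of the replication pathway were read beside the set. Of 33 other replication factors (among them the remaining ORC subunits, the kinase Cdc7 and its partner Dbf4, and the fork protection proteins Timeless, Tipin and Claspin), 32 were tested, 1 rose and 0 fell. Their median log2 fold change was 0.07 with 22 positive, and 7 were higher and 3 lower at an unadjusted p under 0.05. All si-GPD1L libraries were above all si-NC libraries for 8 and below them for 2. The gene that rose was Mcm9, an MCM relative that acts in meiosis and repair, at 258, 300 and 316 normalized counts in si-NC and 381, 375 and 378 in si-GPD1L. Its log2 fold change was 0.38 ± 0.10 (SE, adjusted p = 0.0474 in edgeR's quasi-likelihood test), and the call was lost in 8 of the alternative settings. Beside this list and those that follow, 4.03% of all genes tested rose and 2.33% fell at an adjusted p under 0.05. At an unadjusted p under 0.05 the shares were 11.4% higher and 11% lower. For groups that did not overlap they were 15.1% higher and 13.9% lower.

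Of 9 genes that copy chromatin behind the fork, 8 were tested and 1 rose, with a median log2 fold change of 0.14. At an unadjusted p under 0.05, 3 were higher and 0 lower. All si-GPD1L libraries were above all si-NC libraries for 4 and below them for 0. The gene that rose was Dnmt1, the maintenance DNA methyltransferase, at 1202, 1541 and 1495 normalized counts in si-NC and 1802, 1784 and 1833 in si-GPD1L. Its log2 fold change was 0.35 ± 0.09 (SE, adjusted p = 0.0368 in edgeR's quasi-likelihood test), and the call was lost when any si-GPD1L library was left out. Of 17 other enzymes of nucleotide metabolism, 1 rose and 0 fell, and the median was 0.08. It was Samhd1, which breaks down deoxynucleotides and is also known as an interferon-stimulated restriction factor, at 80.1, 72.0 and 88.8 normalized counts in si-NC and 164, 202 and 183 in si-GPD1L. Its log2 fold change of 1.19 ± 0.15 (SE, adjusted p = 0.000294 in edgeR's quasi-likelihood test) exceeded that of every one of the 40 replication genes.

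Of 19 genes that control the G1/S step, 0 were called, 1 was higher at an unadjusted p under 0.05 and the median was -0.02. E2f1, an activating E2F factor, was at 265, 318 and 308 normalized counts in si-NC and at 311, 334 and 322 in si-GPD1L, with overlapping groups and an adjusted p of 0.533 in edgeR's quasi-likelihood test. The cyclins Ccne1, Ccne2 and Ccna2 had log2 fold changes of -0.03, -0.01 and -0.05. Of 28 genes of mitosis, 1 rose and 0 fell, and the median was 0.08, beside 0.17 for the replication genes. The gene that rose was Mybl2, a transcription factor of the cell cycle, at 378, 350 and 371 normalized counts in si-NC and 482, 495 and 489 in si-GPD1L (log2 fold change 0.42 ± 0.09, SE, adjusted p = 0.0129 in edgeR's quasi-likelihood test). The call was lost without si-NC replicate 2 (adjusted p = 0.0587 with edgeR) and when any si-GPD1L library was left out (adjusted p 0.0506 to 0.0842). Mki67, the proliferation marker, had a log2 fold change of 0.23 (adjusted p = 0.182) and overlapping groups. E2f1, the cyclins and Mki67 were named for their roles after their values were seen, and the difference between the lists was not tested.

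Several facts of the series bear on all these values. Library totals ran from 16892255 to 20149732 counts, and the replication genes had at least 371 counts over the 6 libraries. The targeted transcript Gpd1l was at 262, 332 and 313 normalized counts in si-NC and at 220, 208 and 303 in si-GPD1L. Its log2 fold change of -0.31 had an adjusted p of 0.234 in edgeR's quasi-likelihood test and a two-sided exact permutation p of 0.2, where the smallest possible is 0.1. The library labelled si-GPD1L replicate 3 lay inside the si-NC range for Gpd1l, so each direction above is that of libraries labelled si-GPD1L against si-NC. In the same libraries 15 of 15 interferon-stimulated genes rose, with summed normalized counts of 1656 to 1793 in si-NC against 25071 to 29901 in si-GPD1L. Fibroblast markers took 7.54% to 9.47% of counts in si-NC against 8.95% to 9.46% in si-GPD1L, mostly Col1a1 and Col3a1, and 2 of 12 (Dcn and Lum) fell. The log2 fold change was positive for 3 of the 12 and negative for 9, with a median of -0.08.

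Markers of other cells were present. Of 11 endothelial markers tested 4 rose (Pecam1, Cdh5, Tie1 and Plvap), with summed counts of 1979 to 2446 in si-NC against 2681 to 2823 in si-GPD1L. Of 12 cardiomyocyte markers 1 fell (Pln), with summed counts of 37995 to 39897 and 34463 to 37726. None of 12 macrophage markers was called (1 was higher and 0 lower at an unadjusted p under 0.05), with summed counts of 2895 to 3161 and 2484 to 3598. Of 10 markers of smooth muscle and pericytes 1 rose (Cspg4) and 1 fell (Des), with 90491 to 99682 and 84293 to 88354. Acta2 and Tagln made up most of these sums, with means of 49660 and 32370 normalized counts in si-NC. The paper measured alpha-SMA, the product of Acta2, as a fibrotic marker in atrial fibroblasts. These sums therefore do not measure smooth muscle cells and pericytes alone. The part of these cells and of the interferon-stimulated genes in the values of the replication genes was not tested.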

How the data were processed

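mRNA of rat atrial fibroblasts was sequenced with paired-end reads of 150 bp after selection on the poly(A) tail. The authors deposited read counts per gene, which are whole numbers without normalization, and TPM values. The deposited TPM values were recomputed from the counts and the gene lengths with a largest difference of 4.91e-11 and were used for levels only. The submitters' processing notes name bcl2fastq, HISAT2 2.1.0, HTSeq 0.12.4 and the build rn6, without roles or order, and the strand setting of the counting is not given in the sources used here, so reads of overlapping genes on opposite strands may not be told apart. The deposited columns of the authors' own comparison (log2 fold change, p-value and q-value) and the transcript, KEGG and GO tables were not used.

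The sample titles gave the groups and a digit that was read as the replicate number. The 40 members and all other gene lists were chosen with earlier results of these data known. In edgeR 4.0.16 (R 4.3.3), filterByExpr left 14852 genes, which were given TMM factors (0.9938 to 1.01) and tested for si-GPD1L against si-NC with glmQLFit and glmQLFTest and Benjamini-Hochberg adjustment over all genes tested. The common biological coefficient of variation was 0.0894. The standard error is the absolute log2 fold change divided by the square root of F, and intervals (95%) use the t distribution with the moderated degrees of freedom. Between libraries of a group the counts differed by more than sampling noise (chi-square per degree of freedom 4.12 to 29.9), so no library was counted as a duplicate of another. This says nothing of separate animals or cultures.

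All members could be named, with full statistics for those at an adjusted p under 0.05 and for the 2 with the largest log2 fold change in each direction. From each other list at most the 3 genes with the smallest adjusted p under 0.05 were to be named, and Gpd1l. Outside this rule, the 4 endothelial markers that rose, E2f1, Ccne1, Ccne2, Ccna2, Mki67, Tnnt2, Pold4, Pole3 and Pole4 were named after their values were seen. The same holds for Acta2, Tagln, Col1a1 and Col3a1. Alternatives were DESeq2's size factors, upper-quartile normalization, DESeq2 1.42.0 (Wald test), edgeR's exact test, a filter of 1 count in any library, a filter of 10 counts in every library, a block for the replicate number, the omission of each library in turn, and, added after the data were seen, a fit with each library's lowess trend on gene length removed. The scripts were tested on simulated data. Promoter words were searched with Python 3.11.15 in RefSeq promoters of build GRCr8, matched by gene ID, and the figures were drawn with matplotlib 3.10.9.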

Additional observations from a re-analysis of the deposited data

How the results depend on the processing

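The median log2 fold change of the 40 genes stayed positive in all 14 alternatives, and 0 genes passed both thresholds in any of them. Against 2 members higher in si-GPD1L, edgeR's exact test called 5 (5.88% of all genes higher), the filter of 1 count called 4 (4.23%), the fit with the length trend removed called 5 (5.02%), and the fits that each left out 1 library called 0 to 3 (1.97% to 5.67%). Against 0 members lower, the filter of 1 count called 2 (Rfc4 and Rpa3), and leaving out 1 library gave 0 to 1. Against 945 genes called in all, edgeR's exact test called 1528, the filter of 1 count called 1929, and leaving out 1 library gave 361 to 1531. Against 4 calls in the pathway and mitosis lists, leaving out 1 library gave 1 to 6. The cause of these shifts was not tested. Gpd1l was not called in any alternative.

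No pairing of the libraries by replicate number was seen. Same-numbered libraries had correlations of -0.016, -0.0058 and 0.044 between their deviations, and not every library correlated best with its own number. With 3 libraries a group, these values cannot show that the numbers do not pair cultures. With the replicate block 921 genes were called, 2 of them members (Mcm5 and Pole), and Mcm3 had an adjusted p of 0.0508 with edgeR. At 3 libraries a group the standard errors were 0.07 to 0.28 on the log2 scale, and most of these genes did not pass the adjustment. The smallest change that could have been detected was not computed.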
